A study of Mus musculus with 6 samples.

Results

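The interferon-stimulated genes described here are 38 mouse genes that are commonly read as a signature of interferon signalling. They were taken by gene symbol from a count table that lists 57127 genes, of which 32046 had a count in at least 1 library. All 38 were listed, and 37 passed the filter on low counts that left 19691 genes for testing. Igtp was the member that did not pass.

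Interferons are secreted proteins, and cells release those of type I and type III after sensing viral or other foreign nucleic acid. Type I and type III interferons act through JAK kinases on a complex that holds STAT2 and IRF9 and binds a DNA element called the ISRE, while interferon-gamma acts mainly through a different element, the GAS. The genes that follow encode proteins that bind or degrade viral RNA, trap particles, attack vacuoles that hold microbes, or raise and end the response itself, and in the epididymis, the duct in which sperm mature, such genes belong to the defence of a tract open to ascending infection.

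The RNA came from the whole epididymis of adult mice labelled C57BL/6, housed specific pathogen-free. WT mice carried intact Ocln, and Ocln-KO mice (Ocln-/-) lacked this gene, which encodes the tight-junction protein occludin. No other allele and no agent is named in either genotype. Ocln-KO mice came from heterozygous pairings, the line was otherwise bred to C57BL/6, and the knockout is not described as limited to 1 cell type. There were 3 libraries of each genotype. The methods speak of 3 pairs of mice and also of pooled RNA, so n counts libraries here, and p-values measure the spread between these libraries, which may be technical in part.

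The libraries held 30646424 to 38870780 counts. Values are given as CPM, counts scaled to a common library size with TMM factors, in which 1 count was worth 0.0267 to 0.0314 CPM. Ocln (chr13:100496507-100552718 in GRCm38) stood at 85.9, 78.8 and 91.8 CPM in WT and at 15.1, 15.3 and 14.9 CPM in Ocln-KO, a log2 fold change of -2.50 (SE 0.09) with an adjusted p of 0.000108 in edgeR's quasi-likelihood test. On the first principal component of all genes tested (47.2% of the variance), Ocln-KO 1 and 2 lay at 17.7 and 29.1 and Ocln-KO 3 stood apart at 86.3, with the WT libraries between -52.8 and -37. The tissue label is whole epididymis, although the protocol field of the same records speaks of prefrontal cortex. Crisp1, an abundant epididymal transcript, reached 4439 to 16769 CPM, and of 8 epididymal markers Adam28 and Rnase10 were below 1 CPM in every library. Of 7 cortex markers, Syt1 had 316 to 413 counts per library and Mbp 359 to 563, Gfap, Slc17a7 and Camk2a had 5 to 23, and Snap25 and Neurod6 had at most 2. The summed CPM of the cortex list was 19.8 to 28.8, against 19092 to 33121 for the epididymal list.

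Before their levels, the promoters of the members are shown, since the ISRE is the element through which type I interferon is known to act on such genes. RefSeq promoters of GRCm38.p6 (250 bases before to 50 after a transcription start) were found for 28 of the 38 members, 32 promoters in all. There was no entry for Oas2, Mx1, Mx2, Parp14, Rtp4, Zbp1, Iigp1, Dhx58, Usp18 and Ifi27. The ISRE was searched on both strands as GAAANNGAAA, which can overlap itself, and the GAS as TTCNNNGAA, which reads alike on both strands. An ISRE match lay in 17 of the 28 members (60.7%), while 3.99% of 27025 genes with a promoter in the same table held one. By promoter the shares were 56.2% of the members' 32 and 3.44% of all 32851. A GAS match lay in 6 of the 28 members (21.4%) and in 9.55% of all genes. A match is a description of the letters and not a measured binding site. The search allowed no other spacing or letters, so a promoter without a match may still hold an ISRE.

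The stretches shown are those of the 6 members that passed the test and held an ISRE match (Trim30a, Ddx58, Gbp2, Gbp7, Irgm1 and Oas1a). They are followed by 3 examples that did not pass but show repeated or paired matches (Oas1g, Isg15 and Ifit3). Bst2, Gbp3 and Ifit1, which did not pass either, also held 2 matches each and are not shown. Each is read 5′ to 3′ on the strand of its gene, in GRCm38.p6, and capitals mark the ISRE match or run of overlapping matches.
Trim30a, chr7:104465200-104465249, minus strand: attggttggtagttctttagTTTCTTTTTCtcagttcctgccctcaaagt
Ddx58, chr4:40239814-40239843, minus strand: tccccagcgccctgaggcagTTTCGATTTC
Gbp2, chr3:142620584-142620633, plus strand: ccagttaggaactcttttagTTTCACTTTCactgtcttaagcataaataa
Gbp7, chr3:142530263-142530312, plus strand: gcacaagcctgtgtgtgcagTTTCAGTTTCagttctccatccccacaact
Irgm1, chr11:48871421-48871470, minus strand: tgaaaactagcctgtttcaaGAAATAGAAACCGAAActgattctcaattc
Oas1a, chr5:120907526-120907565, minus strand: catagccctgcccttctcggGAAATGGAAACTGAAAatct
Oas1g, chr5:120887614-120887651, minus strand: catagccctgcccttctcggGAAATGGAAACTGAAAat
Isg15, chr4:156200855-156200916, minus strand: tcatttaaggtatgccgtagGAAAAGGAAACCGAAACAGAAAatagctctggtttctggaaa
Ifit3, chr19:34583353-34583436, plus strand: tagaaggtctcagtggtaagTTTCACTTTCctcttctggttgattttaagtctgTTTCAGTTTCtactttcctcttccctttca

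The matches came in both orientations, since the runs that begin with T are the same letters read on the opposite strand. Isg15 held 3 overlapping matches in a row, Oas1a and Irgm1 held 2, and Ifit3 held 2 that were set apart. Over the 38 bases that the Oas1a and Oas1g windows share, 38 were identical. Of 27 matches in the members' promoters, 24 lay upstream of the start and 23 of these within 160 bases of it, and 8 promoters held 2 or more. In Ddx58 the match lay just after the start, at positions 2 to 11 counted from the start as 0. In Bst2 a GAS match overlapped an ISRE match.

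**Figure D1:**
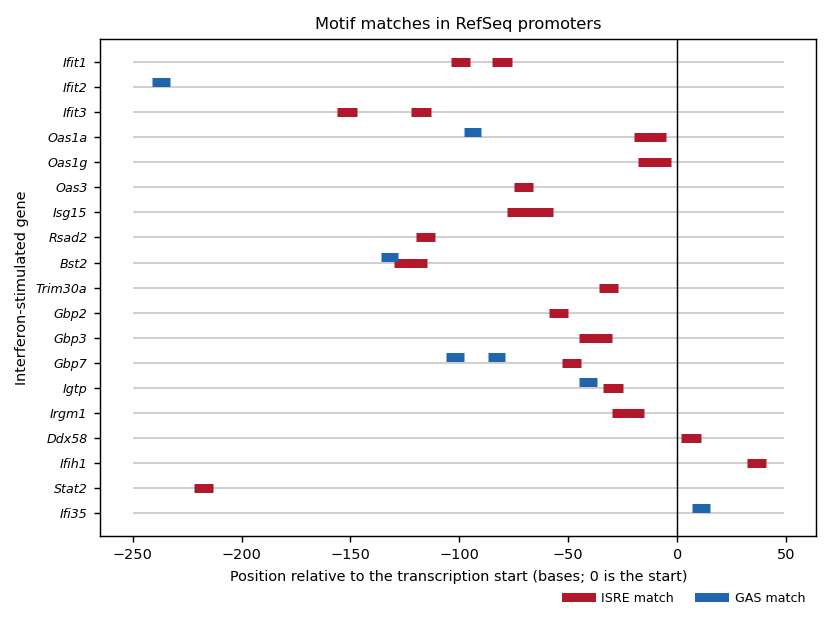
Position of ISRE matches (red) and GAS matches (blue) along the first listed RefSeq promoter of each member that holds either, in bases from the transcription start (vertical line at 0); each grey line is 1 promoter from 250 bases before to 50 after the start. The ISRE matches of Oas1a, Oas1g, Irgm1, Trim30a, Gbp2, Gbp3 and Gbp7 end within 60 bases upstream of the start, those of Ifit1 and Ifit3 lie farther out, and those of Ddx58 and Ifih1 lie after it.

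Of the 10 members that passed, 8 had a promoter in the table and 6 of these held a match, Herc6 and Ifi44 being the exceptions. Of the 27 tested members that did not pass, 19 had a promoter and 10 held a match.

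Most interferon-stimulated genes had higher fitted levels in the Ocln-KO epididymis, with a large spread among the Ocln-KO libraries. Of the 37 members tested, 36 had a positive log2 fold change, and the median was 1.48, while the median of all genes tested was 0.01. At an adjusted p under 0.05 in edgeR's quasi-likelihood test, 10 members were higher in Ocln-KO, where 3.91% of all genes tested were, and none was lower, where 5.04% of all genes were. All 10 were also more than 2-fold higher, which 1.49% of all genes were. In order of fold change these were Ifi44, Iigp1, Oas1a, Trim30a, Parp14, Herc6, Ddx58, Gbp2, Irgm1 and Gbp7. At an unadjusted p under 0.05 there were 26 members higher and 0 lower, against 13.9% and 15.2% of all genes, and DESeq2 at an adjusted p under 0.05 called 22 higher and 0 lower, against 8.15% of all genes higher.

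**Figure D2:**
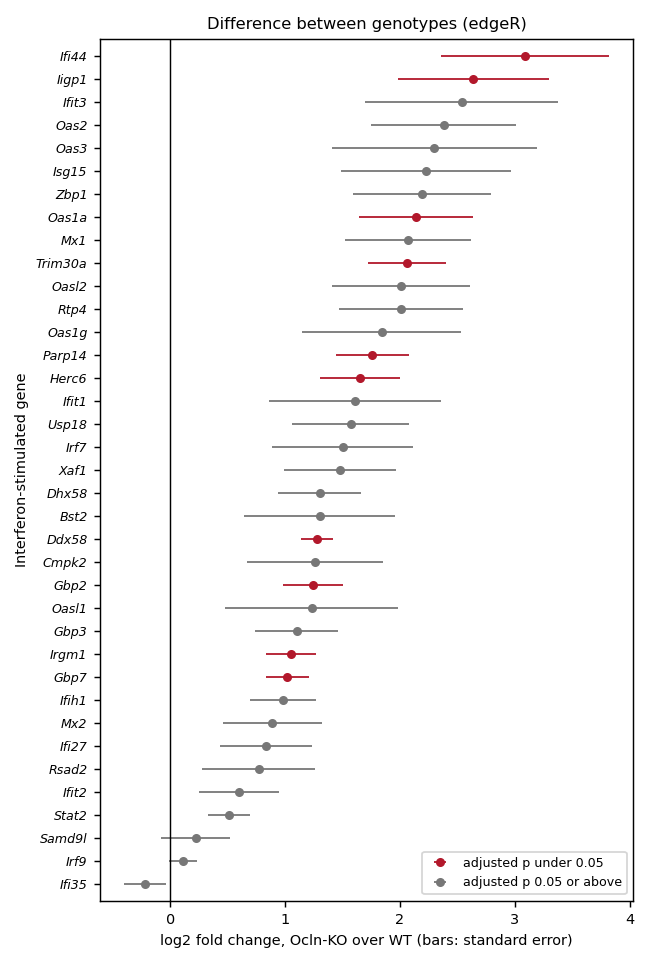
Log2 fold change of Ocln-KO over WT for the 37 members tested (points, edgeR) with its standard error (bars), ordered by size; red marks an adjusted p under 0.05 over all 19691 genes tested. Every point except that of Ifi35 lies right of 0, and the 10 red points include genes with short bars such as Ddx58 and Gbp7, while several larger changes with long bars, such as Ifit3 and Oas3, are grey.

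The 3 Ocln-KO libraries did not carry this equally. Ocln-KO 2 was the highest Ocln-KO library for 35 of the 37 members and Ocln-KO 1 for the other two, Iigp1 and Gbp2, while Ocln-KO 3 was the lowest for 35 and Ocln-KO 1 for Ddx58 and Mx1. All 37 members were above every WT library in Ocln-KO 2, 32 in Ocln-KO 1 and 21 in Ocln-KO 3. Of all genes tested, 33.9%, 34.6% and 36.5% were above every WT library in the same libraries. More than 2 times the WT mean was reached by 33 members in Ocln-KO 2, by 18 in Ocln-KO 1 and by 4 in Ocln-KO 3. The median log2 ratio to the WT mean was 2.34, 0.87 and 0.36 in that order. For the counts over 2 times the WT mean, and for the highest and lowest library, the shares of all genes were not counted. The summed CPM of the list was 612, 556 and 536 in WT and 999, 1741 and 645 in Ocln-KO 1, 2 and 3.

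For 21 members the genotypes did not overlap, all of them higher in Ocln-KO, which 16.9% of all genes tested also showed (19.4% showed it in the lower direction). The highest Ocln-KO library was a median of 3.66 times the lowest over the members, against 1.3 times in WT, and the ratio was larger in Ocln-KO for 36 of the 37. Over all genes tested these ratios were 1.37 and 1.27. The library ranked farthest from WT on the first principal component, Ocln-KO 3, was thus the one nearest to WT in these genes.

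Single libraries decided how many members passed. Without Ocln-KO 3, 28 members were higher (3.67% of all genes), and without Ocln-KO 2 there were 3, Ddx58, Parp14 and Trim30a (1.08% of all genes). Without Ocln-KO 1, 9 passed (3.84% of all genes), with Mx1 and Oas2 added and Ifi44, Iigp1 and Irgm1 lost. Without WT 2 the only member left was Ddx58 (0.419% of all genes), and without WT 1 or WT 3 edgeR called 0 members, where 0.0197% and 0.0789% of all genes were called. At an unadjusted p under 0.05, 21 and 19 members were higher in those last fits, against 9.98% and 10.3% of all genes.

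**Figure D3:**
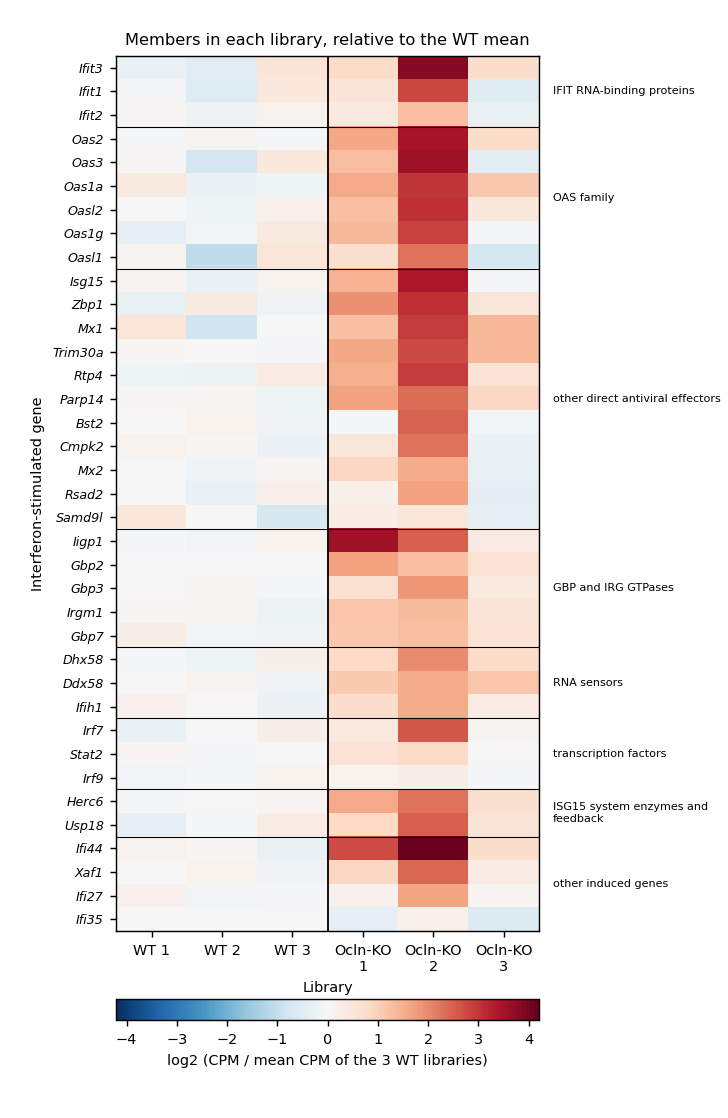
Log2 ratio of each member's CPM to its mean over the 3 WT libraries (colour scale; red higher, blue lower) for the 37 members tested, in rows grouped by role, with the 6 libraries as columns. The column of Ocln-KO 2 is the darkest in most rows, Iigp1 and Gbp2 are darkest in Ocln-KO 1, and Ocln-KO 3 is pale except for Ddx58, Trim30a, Mx1 and Oas1a, the 4 members over 2 times the WT mean there.

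Among the RNA sensors, the genes whose products detect viral RNA in the cytoplasm, all 3 members had a positive fold change with no overlap, and 1 passed. Over all genes tested, 3.91% passed in the higher direction and 16.9% were higher with no overlap. These shares apply to each role group below. Ddx58 (chr4:40203773-40239828), which encodes RIG-I, a sensor of RNA with a 5′ triphosphate, stood at 25.6, 27.7 and 23.3 CPM in WT and at 54.5, 75.0 and 56.9 CPM in Ocln-KO. Every Ocln-KO library was more than 2 times the WT mean, and they differed less among themselves than for other members that passed. Its log2 fold change was 1.28 (SE 0.14) with an adjusted p of 0.00849, the smallest among the members, and it passed in 11 of 13 alternative fits, with a log2 fold change of 1.13 to 1.38.

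Ifih1, which encodes MDA5, the sensor of long double-stranded RNA, had 21.5, 19.0 and 15.8 CPM in WT against 31.5, 55.5 and 24.1 CPM in Ocln-KO. All Ocln-KO libraries were above WT, but the change of 0.98 (SE 0.29) did not pass (adjusted p 0.0719). Dhx58, which encodes LGP2, a protein related to both sensors, was at 2.71 ± 0.44 CPM in WT against 6.70 ± 3.36 in Ocln-KO (SD, n = 3), with an adjusted p of 0.0599.

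None of the 3 transcription factors passed. Irf9, the DNA-binding subunit of the ISRE-bound complex, had 92.3, 94.4 and 110 CPM in WT against 109, 118 and 93.3 CPM in Ocln-KO. Of its exon length 2.28% was shared on the same strand with Rnf31, which was among the genes counted. The genotypes overlapped for Irf9, with a log2 fold change of 0.11 (SE 0.12, adjusted p 0.572). Stat2, its partner, had 64.7, 59.0 and 61.7 CPM in WT against 94.1, 107 and 62.8 CPM in Ocln-KO, so that Ocln-KO 3 lay among the WT libraries (log2 fold change 0.51, SE 0.18, adjusted p 0.112).

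Irf7, the factor that amplifies production of type I interferon, was at 25.0, 30.9 and 36 CPM in WT and at 40.5, 187 and 33.4 CPM in Ocln-KO. Ocln-KO 2 alone was far above the rest, at 6.10 times the WT mean, against 1.32 and 1.09 times in Ocln-KO 1 and 3. The log2 fold change of 1.5 (SE 0.61) had an adjusted p of 0.149.

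The IFIT family, whose proteins bind foreign RNA and block its translation, had 3 members, none of which passed. Ifit3 stood at 4.01, 3.49 and 7.19 CPM in WT and at 8.48, 68.9 and 8.26 CPM in Ocln-KO. The genotypes did not overlap, yet Ocln-KO 2 held 14.1 times the WT mean while the other Ocln-KO libraries held 1.73 and 1.69 times. The log2 fold change was 2.54 with an SE of 0.84 (adjusted p 0.0953).

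Ifit1 had 5.36 to 10.7 CPM in WT against 11.5, 54.5 and 5.45 CPM in Ocln-KO, where Ocln-KO 3 fell within the WT range (adjusted p 0.202). Ifit2 ranged from 8.79 to 11.4 CPM in WT against 13.7, 24.4 and 8.26 CPM in Ocln-KO, with Ocln-KO 3 below every WT library (adjusted p 0.301). Of this family only Ifit3 was above all WT libraries in all Ocln-KO libraries. Reads could be shared between Ifit3 and its near copy Ifit3b, so that its level is uncertain.

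The OAS family encodes enzymes that sense double-stranded RNA and make the messenger that switches on RNase L, along with the related OASL proteins. Oas1a (chr5:120896256-120907521) was the only one of 6 members that passed. It stood at 2.30, 1.49 and 1.56 CPM in WT and at 5.42, 14.3 and 3.91 CPM in Ocln-KO. All Ocln-KO libraries were more than 2 times the WT mean, with a log2 fold change of 2.14 (SE 0.50, adjusted p 0.0402).

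Oasl2 had 10.9, 9.49 and 12.2 CPM in WT against 25.9, 90.9 and 14.9 CPM in Ocln-KO, with no overlap (log2 fold change 2.01, SE 0.60, adjusted p 0.0731). Oas2 rested on 3.15 to 3.63 CPM in WT against 10.2, 36.5 and 5.65 CPM in Ocln-KO, also with no overlap (log2 fold change 2.38, SE 0.63, adjusted p 0.0542). In Oas1g, Oas3 and Oasl1 the genotypes overlapped, since Ocln-KO 3 had 0.710, 1.04 and 0.444 CPM, within the WT range of each. Their log2 fold changes were 1.84, 2.30 and 1.23, with adjusted p-values of 0.126, 0.134 and 0.317. Reads of the neighbouring copies Oas1a and Oas1g, and of Oasl1 and Oasl2, could be divided differently by the counting, which adds uncertainty to each.

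Of 11 members grouped as other direct antiviral effectors, 2 passed. The group is mixed, since it also holds Trim30a, a regulator, and Zbp1, a sensor. Trim30a (chr7:104409025-104465193), a TRIM protein known to restrain inflammatory signalling, stood at 7.78, 7.47 and 6.92 CPM in WT and at 22.9, 50.1 and 19.3 CPM in Ocln-KO. Even the lowest Ocln-KO library was 2.61 times the WT mean, and the log2 fold change was 2.06 (SE 0.34, adjusted p 0.0209). Parp14 (chr16:35832874-35871544), an ADP-ribosyltransferase, had 28.6, 30.2 and 24.6 CPM in WT against 90.7, 141 and 51.3 CPM in Ocln-KO. It was higher in all 3 Ocln-KO libraries, with a log2 fold change of 1.76 (SE 0.32, adjusted p 0.0238).

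These genes passed in 9 of the 13 alternative fits each and, with Ddx58, were the members that passed without Ocln-KO 2. Trim30a has near copies, among them Trim30d, with which it could share reads. Of the exon length of Parp14, 1.18% was shared on the same strand with Gm49730, which was not among the genes counted.

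Isg15, the ubiquitin-like protein that gives the ISG15 system its name, was at 2.62, 2.02 and 2.69 CPM in WT and at 6.76, 25.5 and 2.37 CPM in Ocln-KO. Ocln-KO 3 lay within the WT range, Ocln-KO 2 held 10.4 times the WT mean, and the log2 fold change of 2.23 (SE 0.74) did not pass (adjusted p 0.0968). Bst2, the tetherin that holds budding virions at the membrane, was nearly at one level in 5 libraries, with 11.4, 13.0 and 10.5 CPM in WT against 11.1 and 10.7 CPM in Ocln-KO 1 and 3, and at 64.4 CPM in Ocln-KO 2. Its log2 fold change of 1.3 (adjusted p 0.23) became -0.09 without Ocln-KO 2.

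Rsad2, which encodes viperin, showed 4.92 to 7 CPM in WT against 6.86, 19.3 and 4.53 CPM in Ocln-KO. It too turned, from a log2 fold change of 0.77 (adjusted p 0.336) to -0.07 without Ocln-KO 2. Cmpk2, the nucleotide kinase beside it on the chromosome, had 3.74, 12.8 and 2.22 CPM in Ocln-KO against 2.21 to 2.91 CPM in WT (adjusted p 0.201).

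The dynamin-like GTPase Mx1 had 0.557 to 1.42 CPM in WT against 2.40, 7.66 and 2.63 CPM in Ocln-KO, with no overlap (log2 fold change 2.07, adjusted p 0.0564). Mx2 overlapped, at 2.05 to 2.42 CPM in WT against 4.11, 6.65 and 1.83 CPM in Ocln-KO (adjusted p 0.214). GENCODE annotates Mx2 as a polymorphic pseudogene, and whether the Mx1 and Mx2 transcripts encode working proteins in these mice was not tested. Zbp1, the sensor of Z-form nucleic acid that can start necroptosis, had 1.02 to 1.61 CPM in WT against 4.77, 10.6 and 1.78 CPM in Ocln-KO, with no overlap and a log2 fold change of 2.19 (adjusted p 0.0601). Rtp4, a receptor transporter with antiviral activity, had 4.86 to 7.19 CPM in WT against 16.3, 43.6 and 8.70 CPM in Ocln-KO, also without overlap (adjusted p 0.0566). For Rtp4, 13.9% of the exon length was shared on the same strand with Gm45338, which was not among the genes counted.

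Samd9l, a restriction factor of poxviruses, stood at 176, 127 and 79.7 CPM in WT and at 160, 183 and 101 CPM in Ocln-KO. WT 1 lay above Ocln-KO 1 and 3, so that the genotypes overlapped, and the log2 fold change was 0.22 (SE 0.30, adjusted p 0.68).

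The GBP and IRG GTPases, which coat and disrupt the vacuoles of intracellular microbes and are strongly induced by interferon-gamma, had 4 members that passed of 5 tested, and in none of the 5 did the genotypes overlap. The matching shares of all genes were 3.91% and 16.9%. Iigp1, an IRG effector, stood at 7.19, 6.89 and 8.19 CPM in WT and at 87.2, 42.3 and 9.38 CPM in Ocln-KO. It was highest in Ocln-KO 1, at 11.8 times the WT mean, while Ocln-KO 3 stood at 1.26 times the WT mean. Its log2 fold change was 2.64 (SE 0.66, adjusted p 0.0481), and it passed in 6 of 13 alternative fits.

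Gbp2 (chr3:142620602-142638008) had 6.76, 6.62 and 6.89 CPM in WT, a narrow range, and 21.7, 16.1 and 10.2 CPM in Ocln-KO, again with Ocln-KO 1 highest. The log2 fold change was 1.24 (SE 0.26, adjusted p 0.0316). Irgm1 (chr11:48861968-48871683), a regulatory IRG protein that keeps the effectors off the cell's own membranes, had 9.84, 10.4 and 8.29 CPM in WT against 21.5, 24.0 and 13.7 CPM in Ocln-KO (log2 fold change 1.05, SE 0.22, adjusted p 0.0321). Ocln-KO 1 and 2 were close to each other for this gene.

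Gbp7 (chr3:142530342-142550149) had 15.6, 12.2 and 12.1 CPM in WT against 29.1, 31.8 and 19.9 CPM in Ocln-KO, a log2 fold change of 1.02 (SE 0.19, adjusted p 0.0268). Gbp3, beside it in the same cluster, had 4.39 to 4.81 CPM in WT against 7.29, 16.4 and 6.16 CPM in Ocln-KO, and did not pass (log2 fold change 1.1, adjusted p 0.0929). The GBP genes are near copies that could share reads. Of the exon length of Gbp7, 11.3% was shared on the same strand with Gm43802, which was not among the genes counted. Igtp, another IRG gene, had 0, 5 and 9 counts in WT and 7, 4 and 8 in Ocln-KO and was not tested, with 8.01% of its exon length shared with Irgm2 on the same strand.

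Averaged over the 5 tested GTPases, log2 CPM was 3.03, 2.97 and 2.93 in WT and 4.61, 4.61 and 3.47 in Ocln-KO 1, 2 and 3. Over the other 32 members the means were 2.70, 2.56 and 2.75 in WT and 3.64, 4.98 and 2.96 in Ocln-KO. The equal GTPase means of Ocln-KO 1 and 2 came from genes that differed in both directions. Ocln-KO 1 held 2.06 times the level of Ocln-KO 2 for Iigp1 and 1.34 times for Gbp2, but 0.445 times for Gbp3, 0.897 times for Irgm1 and 0.917 times for Gbp7. These ratios compare single libraries and were not tested.

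**Figure D4:**
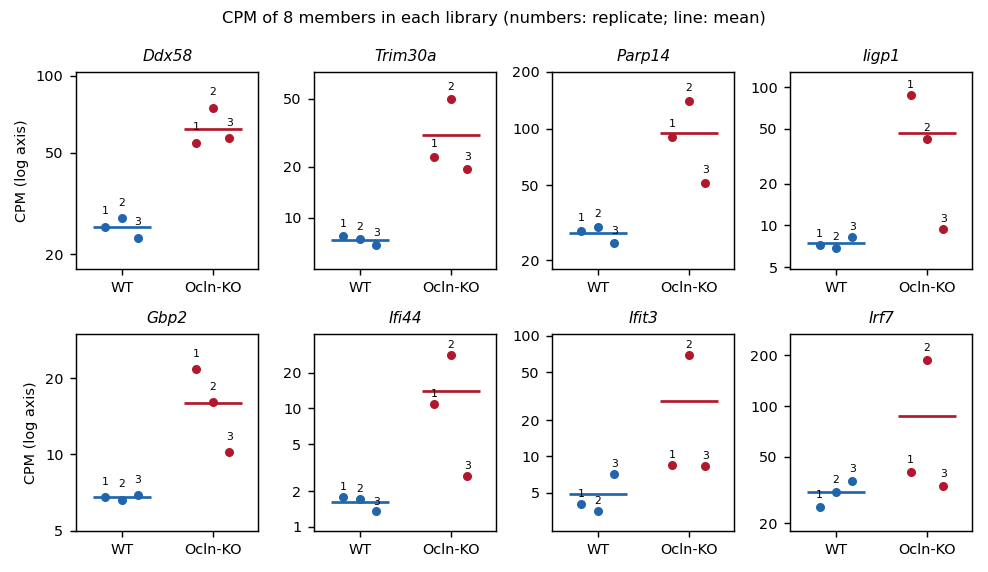
CPM of 8 members in each library (points, with the replicate number beside them; log axis with a range of its own in each panel) and the mean of each genotype (line). Ddx58 and Trim30a are clearly apart between genotypes, Iigp1 and Gbp2 are highest in Ocln-KO 1, and Ifit3 and Irf7 have 1 high point, Ocln-KO 2.

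Of the ISG15 system enzymes and feedback genes, 1 of 2 passed, and neither overlapped, against 3.91% and 16.9% of all genes. Herc6 (chr6:57581000-57664632), the ligase that joins ISG15 to its targets in mice, stood at 10.8, 11.5 and 12.2 CPM in WT and at 34.5, 55.3 and 18.4 CPM in Ocln-KO, a log2 fold change of 1.65 (SE 0.35, adjusted p 0.0329). Of its exon length 13.7% was shared on the same strand with Gm45193, which was not among the genes counted. Usp18, the protease that removes ISG15 and damps the type I receptor, had 2.81 to 4.50 CPM in WT against 6.45, 20.4 and 5.18 CPM in Ocln-KO (log2 fold change 1.57, adjusted p 0.0919).

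Of the 4 other induced genes 1 passed. Ifi44 (chr3:151730922-151749960) had the largest fitted change of all members, from 1.79, 1.73 and 1.35 CPM in WT to 10.9, 28.1 and 2.69 CPM in Ocln-KO (log2 fold change 3.09, SE 0.73, adjusted p 0.043). Its Ocln-KO libraries held 6.73, 17.3 and 1.66 times the WT mean. Ifi35 was the member with a negative fold change, with 21.7, 22.2 and 21.4 CPM in WT against 17.2, 24.4 and 14.6 CPM in Ocln-KO. Ocln-KO 2 was above WT and the other Ocln-KO libraries were below it, and the change of -0.22 (SE 0.18) had an adjusted p of 0.479.

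Xaf1, a proapoptotic interferon target, had 4.69 to 5.69 CPM in WT against 9.32, 27.2 and 6.48 CPM in Ocln-KO, with no overlap (log2 fold change 1.48, adjusted p 0.0958). Ifi27 had 6.48 to 7.86 CPM in WT against 7.95, 21.8 and 7.46 CPM in Ocln-KO, where Ocln-KO 3 lay in the WT range (adjusted p 0.215).

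Per kb of exon, the members differed widely in level, and their order shifted with genotype. In WT the highest were Samd9l at 23.5, Irf9 at 18.4, Bst2 at 12.9, Ifi35 at 12.6 and Stat2 at 10.4 CPM per kb, and the lowest of the tested members was Oas3 at 0.201. In Ocln-KO the order was Bst2 at 31.8, Samd9l at 27.3, Irf7 at 23.0, Irf9 at 19.8 and Ifit3 at 16.4 CPM per kb, with Oasl1 lowest at 0.665. The high places of Bst2, Irf7 and Ifit3 in Ocln-KO rested on Ocln-KO 2, and the spread of each covered the neighbours in this order. In bulk tissue fewer cells of a type and less RNA per cell cannot be told apart, and the same holds for more of either.

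The rest of the interferon pathway was read from 7 lists of 124 genes, of which 98 were tested. In these lists 19 genes were higher in Ocln-KO and 1 was lower at an adjusted p under 0.05 in edgeR's test, against 3.91% and 5.04% of all genes tested. The median log2 fold change was 0.54. No overlap was seen for 46 genes in the higher and 3 in the lower direction, against 16.9% and 19.4% of all genes. The same shares of all genes, called or without overlap, apply to each list below. Ocln-KO 2 was the highest Ocln-KO library for 56 of the 98, and Ocln-KO 3 the lowest for 55. How often this held over all genes was not counted. Without WT 1, WT 2 or WT 3, edgeR called 0 of the genes higher, without Ocln-KO 2 it called 3, and without Ocln-KO 3 it called 33. Over all genes the shares called higher in these fits were 0.0197%, 0.419% and 0.0789% without WT 1, 2 and 3, 1.08% without Ocln-KO 2 and 3.67% without Ocln-KO 3. The 1 lower call was also lost when any 1 of the WT libraries was left out, and without Ocln-KO 2 there were 2.

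The interferons themselves were at or near 0. Of 21 ligand genes, 18 had no count in any library, and the other 3, Ifna7, Ifnz and Ifng, had 11 counts together, so that none could be tested. Ifnb1 had 0 counts in all 6 libraries, and Ifng had 1 count, in Ocln-KO 1. A level of 0 counts allows up to 3 counts, or 0.0802 to 0.0942 CPM in these libraries, a limit that covers counting error only.

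Of 11 receptor and JAK-STAT genes, 2 were higher, with a median log2 fold change of 0.22 over the list. Ifngr1, the ligand-binding chain of the interferon-gamma receptor, rose from 91.1, 89.8 and 94.4 CPM in WT to 151, 113 and 168 CPM in Ocln-KO (0.65, SE 0.14, adjusted p 0.0354). Ifnlr1, the specific chain of the type III receptor, rose from 12.9, 11.8 and 11.9 to 17.9, 16.5 and 18.8 CPM (0.54, SE 0.12, adjusted p 0.0359). Both were highest in Ocln-KO 3 and lowest in Ocln-KO 2 among the Ocln-KO libraries, an order unlike that of the members.

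Of 16 genes for sensing and signalling, 4 were higher and none lower, with a median of 0.40. Irf1, an interferon-gamma-induced factor, rose from 29.3, 32.6 and 30.9 to 47.4, 40.2 and 39.3 CPM (0.45, SE 0.10, adjusted p 0.0401). The next smallest p-values were those of Irf8, a factor of myeloid cells (0.48, adjusted p 0.0448), and Ikbke, a kinase that acts on IRF3 and IRF7 (1.01, adjusted p 0.0448). In all of these genes every Ocln-KO library was above every WT library. The 9 genes listed as negative regulators included Isg20, an RNA exonuclease that is itself interferon-induced, so the list is mixed. None of the 9 was higher and 1 was lower, which was Isg20 and so is not read as a loss of negative regulation. Isg20 fell from 369, 349 and 392 to 224, 273 and 192 CPM (-0.69, SE 0.13, adjusted p 0.0281). The genotypes did not overlap for it.

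Of 42 tested among 43 other type I interferon-induced genes, 8 were higher and none lower, with a median of 0.86. Isg20 was not part of this list. The smallest p-values belonged to Parp9, Parp12 and Rnf213. Parp9, a macrodomain protein of the PARP family, rose from 17.8, 15.5 and 16.2 to 44.8, 58.9 and 31.8 CPM (1.45, SE 0.21, adjusted p 0.0144), and Rnf213, a large ubiquitin ligase, from 269, 284 and 295 to 564, 735 and 405 CPM (1.01, SE 0.20, adjusted p 0.028). Parp12 had a log2 fold change of 0.83 (adjusted p 0.0235).

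Of 12 tested among 13 other GBP and IRG genes, 3 were higher and none lower, with a median of 0.89. Tgtp1, an IRG gene, had 0.535, 0.469 and 0.539 CPM in WT against 7.79, 2.86 and 0.977 CPM in Ocln-KO (2.90, SE 0.71, adjusted p 0.0454), with Ocln-KO 1 highest as for Iigp1. Gbp6 and Gbp5 had log2 fold changes of 1.1 (adjusted p 0.0237) and 0.97 (adjusted p 0.0438).

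Among 11 antigen-processing targets of interferon-gamma, 8 were tested and 2 were higher, with a median of 0.34. Nlrc5, the activator of MHC class I genes, rose from 4.78, 4.54 and 6.65 to 25.0, 18.4 and 11.2 CPM (1.77, SE 0.30, adjusted p 0.0216), with Ocln-KO 1 highest. Psme1, a proteasome activator subunit, rose from 35.1, 34.6 and 34.5 to 48.2, 54.2 and 52.9 CPM (0.58, SE 0.09, adjusted p 0.0154). Named after their values were seen, Psmb8, Psmb9 and Tap2 had at most 9 counts in a library and were not tested. B2m, also named afterwards, had 1002 ± 19.7 CPM in WT against 646, 1131 and 513 CPM in Ocln-KO (adjusted p 0.363), above WT in Ocln-KO 2 alone.

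**Figure D5:**
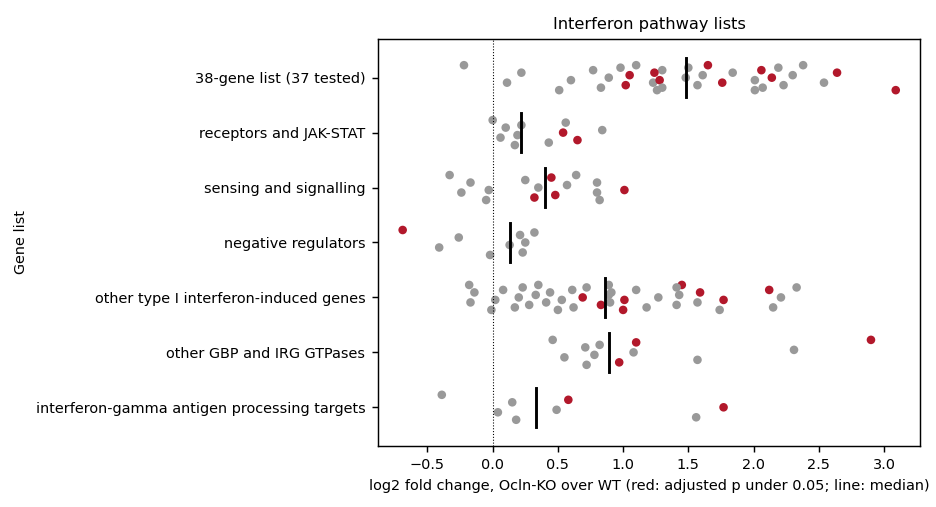
Log2 fold change of Ocln-KO over WT for each tested gene (points; red marks an adjusted p under 0.05) in the 38-gene list and in 6 pathway lists, with the median of each list (vertical bar); the interferon ligands are not shown because none was tested. The medians run from 1.48 in the 38-gene list over 0.89 and 0.86 in the other GTPases and the other type I genes to 0.13 in the negative regulators.

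Summed markers of most immune cells stood above their WT range in every Ocln-KO library, but in another order of libraries than the interferon-stimulated genes. The summed CPM of 10 macrophage markers was 208 to 249 in WT and 257, 294 and 444 in Ocln-KO 1, 2 and 3, and none of the 10 passed. Lyz2 made up 163 of the 444 CPM in Ocln-KO 3. Not all 10 followed the sum: Cd163 had 13.3, 23.9 and 10.9 CPM in WT and lower values of 10.8, 7.91 and 10.6 in Ocln-KO, and Fcgr1 was highest in Ocln-KO 2, at 7.25 CPM. The 6 dendritic-cell markers summed to 18.4 to 22.2 in WT and 30.1, 30.9 and 46.8 in Ocln-KO, with none passing. The 6 T-cell markers summed to 2.54 to 3.53 and 5.11, 7.25 and 7.99, the 4 B-cell markers to 0.557 to 0.695 and 1.15, 0.973 and 2.78, and the 6 neutrophil markers to 0.646 to 2.11 and 1.93, 2.51 and 4.91. Only 5 T-cell markers, 1 B-cell marker and 1 neutrophil marker had enough counts to be tested, and none of these passed. For neutrophils Ocln-KO 1 lay within the WT range, and 1 gene, Csf3r, supplied 420 of the 447 counts of that list, so that its sum and order are those of Csf3r. All these sums were highest in Ocln-KO 3, the library in which the interferon-stimulated genes were lowest.

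The 6 natural killer cell markers summed to 1.14 to 1.40 in WT and 2.56, 5.68 and 4.71 in Ocln-KO, with Ocln-KO 2 highest. Of 3 tested, 1 passed, Klrb1c (log2 fold change 2.62, adjusted p 0.0301). The 4 markers of plasmacytoid dendritic cells, major producers of type I interferon, summed to 0.821 to 1.07 and 1.15, 1.54 and 2.37, with none of 2 tested passing and Pacsin1 at no more than 3 counts. Siglech made up 1.6 of the 2.37 CPM in Ocln-KO 3. Klk1 went the other way, with 22, 10 and 32 counts in WT and 9, 8 and 12 in Ocln-KO. Of the neutrophil markers S100a8, Ly6g and Cxcr2 had at most 3 counts. The endothelial sum was 75.2 to 89.9 in WT and 78.6 to 95.3 in Ocln-KO. The general epithelial sum was 1454 to 1625 and 1236 to 1609, with 1 of 6 passing (Krt19, higher). The epididymal sum was 27552 to 33121 and 19092 to 28235, with none of 6 tested passing. The cortex list summed to 19.8 to 23.8 and 27.3 to 28.8, with 1 of 5 tested passing (Mbp, higher). The part of any of these cell types in the interferon-stimulated genes was not tested.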

How the data were processed

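Whole-epididymis RNA of 3 WT and 3 Ocln-KO libraries was analysed. Per the paper, rRNA was removed from total RNA, and strand-preserving libraries were read from both ends in a single lane. The authors aligned reads to GRCm38 with HISAT2 (version 2.0.4 in the submitters' processing notes), counted them per gene with HTSeq and deposited the untransformed counts as 1 table. The counting mode, strand setting and handling of multiply aligned reads are not given in the sources used here, so near copies and overlapping genes are uncertain. Columns were matched to samples by name, with 0 left over.

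The main test was edgeR 4.0.16 (quasi-likelihood, TMM factors, low counts filtered by genotype, R 4.3.3), Ocln-KO against WT, with Benjamini-Hochberg adjustment over all 19691 genes. All adjusted p-values are from this test unless another is named. It takes 1 dispersion estimate per gene for both genotypes. The larger spread of the members in Ocln-KO (median ratio of highest to lowest library 3.66, against 1.3 in WT) is therefore not modelled. CPM used TMM-scaled library sizes. Alternatives were DESeq2 1.42.0, limma-voom 3.58.1, RLE factors, total counts only, no filter, a minimum of 10 counts per library, the replicate number as a block, and leaving out 1 library at a time. The members and lists were chosen with earlier results of these data known, and no p-value is given for a list. Members that passed were named with full statistics, as was the member with the highest mean CPM of each role group. From each pathway list the genes that passed were named, or the 3 with the smallest p-values where more than 3 passed, plus Irf1, Ifnb1 and Ifng, and 1 further gene that is not reported here. Of simulated 4-fold changes in 200 genes for this comparison (19308 genes tested), edgeR recovered 79% with 11 unchanged genes called, limma-voom 75% with 10, and DESeq2 83.5% with 54. The simulation gave both genotypes the same dispersion for each gene, so these figures need not hold for members that spread more in Ocln-KO. No pair of libraries was a duplicate: counts of replicates differed by 15.1 to 123 times sampling noise (chi-square per degree of freedom). Exon lengths and coordinates came from GENCODE M21 (GRCm38), whose symbols matched 60.1% of those listed and all 38 members, and promoters from RefSeq (GRCm38.p6).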

Additional observations from a re-analysis of the deposited data

How the results depend on the processing

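The 13 alternatives changed how many interferon-stimulated genes passed far more than their direction. Against 10 members higher in Ocln-KO, DESeq2 called 22, limma-voom 6 and the fit without a filter on low counts 21, where 8.15%, 3.7% and 2.94% of all genes tested were higher (3.91% in the main comparison), and of these 20, 5 and 20 members were also over 2-fold, against 2.73%, 1.23% and 1.26% of all genes. RLE factors and the 10-count minimum each gave 10 (4.06% and 4.67% of all genes), and total counts only gave 14 (5.97%), with the median of all genes at 0.09. Leaving out 1 library gave 0 to 28 members, and 0 to 27 over 2-fold, while the share of all genes higher ran from 0.0197% to 3.84%. The median log2 fold change of the members was 0.77 to 1.83 in these fits. No alternative called a member lower. With 1 library left out, the log2 fold change of Rsad2 ran from -0.07 (without Ocln-KO 2) to 1.13, that of Bst2 from -0.09 (without Ocln-KO 2) to 1.7 and that of Samd9l from -0.03 (without WT 3) to 0.52. These were the 3 reversals, and none of the 3 genes passed in any fit. Over all members and alternatives, 47 values newly passed, 52 no longer passed and 378 kept their direction and side of the threshold. In the pathway lists 19 genes were higher, 38 with DESeq2 and 30 with total counts only, and 0 to 33 with 1 library left out, in fits whose shares over all genes are those just given. The 1 lower gene became 2 with DESeq2 and 0 to 2 with 1 library left out (8.67% and 0.0935% to 4.63% of all genes lower). Where a library was left out the fit had fewer samples, and the cause of the other differences was not tested.

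With the replicate number as a block, 1 member (Ddx58) passed, also over 2-fold, and in the pathway lists 0 genes were higher and 0 lower, where over all genes 0.0508% were higher and 0.157% lower. The fall in calls was thus shared by all genes. The numbers are not known to pair the libraries. Deviations of same-numbered libraries from their genotype means correlated at -0.05, -0.03 and 0, and those of differently numbered libraries at -0.08 to 0.13. With 3 libraries per genotype these values cannot decide whether the numbers mark pairs. The block also takes up residual degrees of freedom. With 3 libraries against 3, an exact two-sided permutation test cannot go below p = 0.1 for a single gene.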
